A study of Homo sapiens with 8 samples.

Results

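The genes described here make, import, move, export and store cholesterol, or control those steps through the SREBP transcription factors. They were taken by symbol from a list of 32 genes. All 32 have a row in the table of 23368 gene symbols, and 31 of them were among the 13395 genes with enough reads to be tested. The exception was ABCG1, a sterol exporter, with 0 counts in each of the 8 libraries. The list holds 8 enzymes of the early mevalonate pathway, 11 of squalene and sterol synthesis, 7 genes of SREBP control, 3 of uptake and transport and 3 of efflux and esterification.

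RNA-seq was done on MDA-MB-231, an established human line of triple-negative breast cancer with mesenchymal features, grown in DMEM with 10% fetal calf serum. Cells received a control siRNA (siC) or siE1, siE2 or siE3, which are separate siRNAs against ESRRA, the gene of the orphan nuclear receptor ERRα, and each siRNA has 2 libraries. Every group is the same line with the same transfection reagent (INTERFERin), and the sources used here do not give the sequence of siC or the time after transfection. Whether the 2 libraries of a group are separate cultures is not labelled, and the p-values therefore reflect how far these libraries spread, which could be technical.

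Cholesterol is built from acetyl-CoA through mevalonate, isoprenoid diphosphates, squalene and lanosterol. When sterols in the endoplasmic reticulum are low, SCAP escorts the SREBP precursors (products of SREBF1 and SREBF2) to the Golgi, where the proteases MBTPS1 and MBTPS2 cut them in turn and release the active factors, which turn on the enzymes of synthesis and uptake. When sterols are high, INSIG1 and INSIG2 hold SCAP back, while oxysterols activate the LXR receptors, which turn on the exporters ABCA1 and ABCG1 and the ubiquitin ligase MYLIP.

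The promoters of 5 genes are shown because these genes carry the patterns below: INSIG1 and MSMO1 rose with each siRNA, SREBF2 encodes the SREBP of the cholesterol branch, and STARD4 and MBTPS1 rose with one siRNA and fell with another. Each sequence is the 250 bases before the RefSeq transcript start on GRCh38.p14, read 5′ to 3′ on the gene's strand. Capitals mark the letters of the SREBP element (TCACNCCAC), the NF-Y box (CCAAT) and the E-box (CACGTG) on either strand.
INSIG1, chr7:155297628-155297877, plus strand: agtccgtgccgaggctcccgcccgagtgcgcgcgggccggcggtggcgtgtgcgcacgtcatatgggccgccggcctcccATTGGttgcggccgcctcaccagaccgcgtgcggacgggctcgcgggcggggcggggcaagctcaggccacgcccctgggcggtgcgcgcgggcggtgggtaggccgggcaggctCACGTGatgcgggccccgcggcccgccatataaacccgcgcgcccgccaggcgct
MSMO1, chr4:165327419-165327668, plus strand: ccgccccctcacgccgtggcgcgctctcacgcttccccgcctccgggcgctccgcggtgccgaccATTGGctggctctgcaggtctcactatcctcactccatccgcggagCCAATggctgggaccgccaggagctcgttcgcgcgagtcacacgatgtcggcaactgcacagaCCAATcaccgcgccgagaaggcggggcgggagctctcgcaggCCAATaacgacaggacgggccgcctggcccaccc
SREBF2, chr22:41832855-41833104, plus strand: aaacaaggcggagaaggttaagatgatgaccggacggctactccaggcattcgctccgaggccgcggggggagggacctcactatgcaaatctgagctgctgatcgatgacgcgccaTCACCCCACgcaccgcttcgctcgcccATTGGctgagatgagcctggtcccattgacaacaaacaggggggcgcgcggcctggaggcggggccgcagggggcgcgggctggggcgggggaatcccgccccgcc
STARD4, chr5:111512536-111512785, minus strand: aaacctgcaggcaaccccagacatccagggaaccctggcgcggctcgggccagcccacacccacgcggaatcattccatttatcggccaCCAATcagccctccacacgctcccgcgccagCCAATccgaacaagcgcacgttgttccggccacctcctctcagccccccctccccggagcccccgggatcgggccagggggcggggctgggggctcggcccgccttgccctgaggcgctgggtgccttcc
MBTPS1, chr16:84116943-84117192, minus strand: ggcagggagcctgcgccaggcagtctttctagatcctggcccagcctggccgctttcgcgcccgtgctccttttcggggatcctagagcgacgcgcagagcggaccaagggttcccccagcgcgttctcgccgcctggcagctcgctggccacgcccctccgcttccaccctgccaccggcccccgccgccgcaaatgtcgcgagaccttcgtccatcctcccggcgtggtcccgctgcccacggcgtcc
MSMO1 holds 4 NF-Y boxes in this stretch, STARD4 holds 2, and INSIG1 and SREBF2 hold 1 each. The SREBF2 sequence holds the SREBP element, and MBTPS1 holds none of the 3 motifs.

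Promoter windows of 300 bases (250 before the start and 50 after it) were found for 27 of the 32 genes, under SC5D for SC5DL. ACAT2, FDFT1, SQLE, SCARB1 and ABCG1 had no entry. The NF-Y box stood in 19 of the 27 genes (70.4%), against 43.2% of the 10469 tested genes with a window and 39.7% of all 27305 genes with one. It was found in 14 of the 16 synthesis enzymes with a window (87.5%) and in 2 of the 7 genes of SREBP control. The exact SREBP element was found in 1 gene, SREBF2 (3.70%), against 1.45% of tested genes. The E-box was found in 5 of 27 genes (ABCA1, INSIG1, LSS, SC5DL and SCAP), or 18.5%, against 12.5%. The Sp1 box (GGGCGG) was found in 24 of 27 (88.9%), against 77.3%. The ERR element (TCAAGGTCA) and its shorter core AAGGTCA, which lies within it, were found in 0 of the 27, against 0.210% and 3.71% of tested genes. All motifs were searched on both strands. A match describes letters in a window and is not a measured binding site, and a missing match says only that those letters are not in that window.

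**Figure D1:**
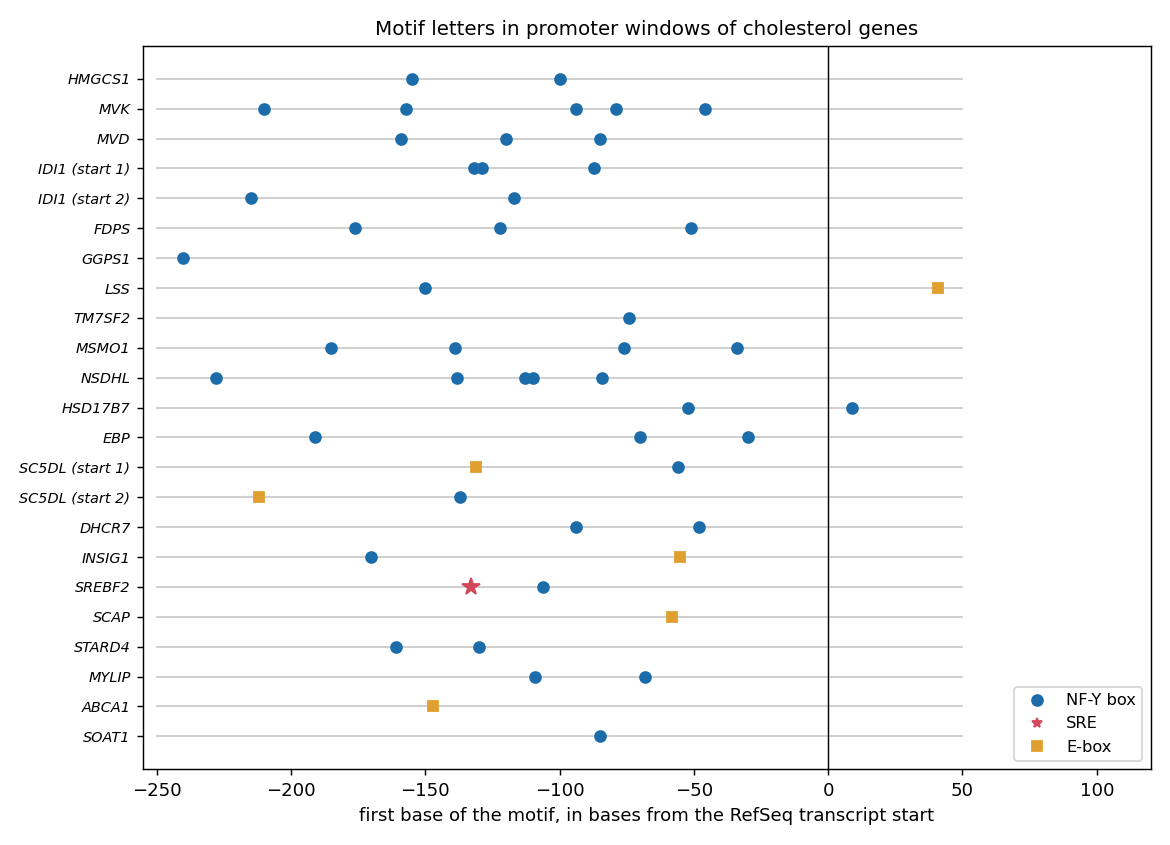
Positions of NF-Y boxes (circles), the SREBP element (SRE, star) and E-boxes (squares) in the promoter windows that hold at least 1 of them; the x axis gives bases from the RefSeq transcript start, and each grey line is a window. NF-Y boxes are spread over the windows of the synthesis enzymes, and the single SREBP element lies in SREBF2.

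The target was lower in every siRNA library. ESRRA stood at 62.9 and 64.8 CPM (counts scaled to TMM-adjusted library size) in siC, 10.3 and 10.5 in siE1, 8.86 and 7.25 in siE2 and 8.55 and 8.31 in siE3. Total counts were 21835995 to 25880548 a library. Libraries of a group differed by more than sampling noise (chi-square over degrees of freedom 3.11 to 5.12, against 40.6 to 75.1 between groups). Markers known for this line were abundant, with VIM at 73202 to 93788 counts, and ESR1, PGR and CDH1 were at 0 to 3 counts. Of the markers of other cell types, PTPRC, CD3E and HBB had 0 to 2 counts, PECAM1, CDH5 and VWF 1 to 21, and COL1A2, DCN and LUM 0 to 3. CD14 had 4 to 18 counts, COL3A1 1 to 20 and PDGFRA 0 to 5, and EPCAM, known to be low in this line, had 229 to 297. KDR at 24 to 75 counts and COL1A1 at 91 to 230 were the highest of the endothelial and fibroblast lists. Some of these low markers moved with an siRNA by edgeR: KDR (2.55-fold) and CD14 (4.15-fold) were higher with siE1, PECAM1 (5.05-fold) and COL1A1 (1.56-fold) were higher with siE2, and COL3A1 was lower with siE2 (0.233 times siC). Their part in the results below was not tested.

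Cholesterol genes were mostly higher after ESRRA siRNA, by small amounts. With siE1, 19 of the 31 genes rose and 2 fell (edgeR adjusted p below 0.05), which is 61.3% and 6.45%, against 24.5% and 25.8% of all tested genes. With siE2, 15 rose and 5 fell (48.4% and 16.1%), against 27.9% and 28.5%, and without siE2 replicate 1 the 20 calls became 13. With siE3, 18 rose and 2 fell (58.1% and 6.45%), against 21.3% and 20.8%. In the average of the 3 siRNAs, 18 rose and 2 fell, against 23.4% and 27.7%. The median log2 fold change of the 31 genes was 0.25 for siE1, 0.11 for siE2 and 0.21 for siE3, where the median of all tested genes was -0.01, 0.01 and -0.00. The higher share was thus above that of all tested genes with each siRNA, and the lower share below it. The 3 comparisons use the same siC libraries and are not independent of each other. In bulk RNA, a change in every cell and a change in some of the cells cannot be told apart.

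Most changes were under 1.5-fold. With siE1, 0 of the 31 genes passed both the test and a limit of 1.5-fold, against 14.7% of all tested genes, although 22 had an unadjusted p below 0.05 in the higher direction. With siE2, 7 of them passed it (GGPS1, TM7SF2, MSMO1, INSIG1, MBTPS1 and ABCA1 higher, INSIG2 lower), against 18%. With siE3, 4 passed it (HMGCS1, PMVK, TM7SF2 and INSIG1, all higher), against 9.97%, and in the average 3 did (GGPS1, TM7SF2 and INSIG1), against 9.53%. The share past 1.5-fold was below that of all tested genes with siE1 and near it with the average and the other siRNAs.

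Called higher by all 3 siRNAs were 10 of the 31 genes (32.3%), against 8.73% of all tested genes. They are ACAT2, HMGCS1, PMVK, MVD and GGPS1 of the early pathway, LSS, MSMO1 and SC5DL of sterol synthesis, INSIG1 and MYLIP. None of the 31 was called lower by all 3, against 7.42%, and that count was also 0 at an unadjusted p below 0.05, with DESeq2 and with limma-voom. Without siC replicate 1, the 10 became 6: HMGCS1, PMVK, MVD, GGPS1, MSMO1 and SC5DL remained called. SQLE, which makes the epoxide of squalene, and SCAP were called with none of the siRNAs by edgeR. IDI1, FDPS, MBTPS1 and STARD4 were called higher with one siRNA and lower with another. How many of all tested genes were called with none, or in opposite directions, was not counted.

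**Figure D2:**
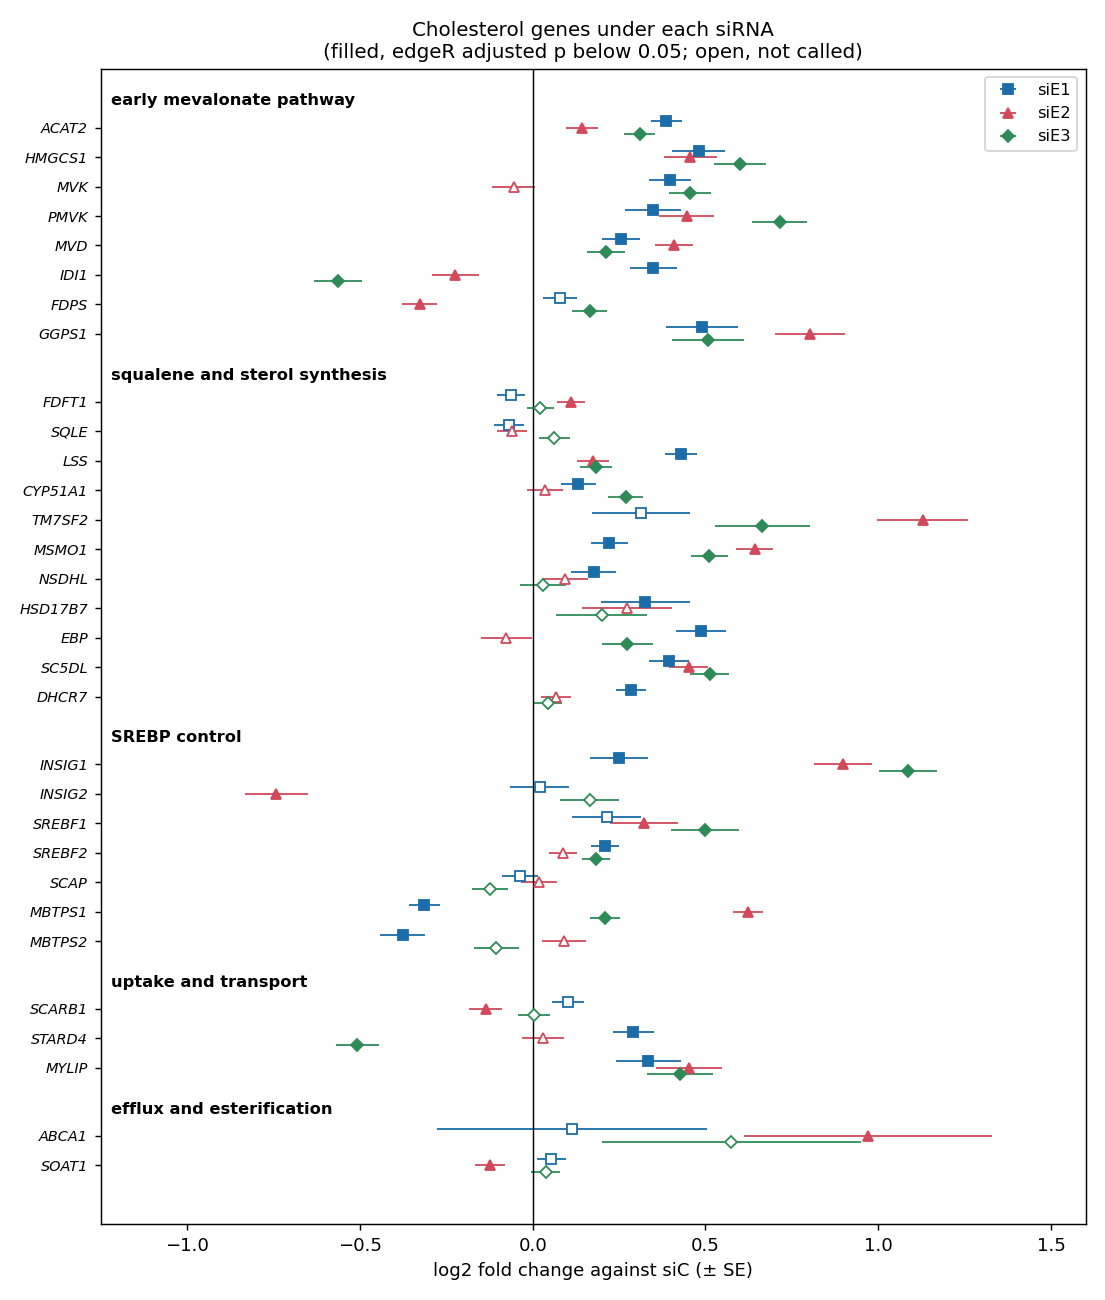
Log2 fold change against siC (x axis, ± SE) of the 31 tested cholesterol genes, by role, for siE1, siE2 and siE3; filled symbols have an edgeR adjusted p below 0.05. Synthesis enzymes lie mostly right of 0, INSIG1 reaches 1.09 with siE3, and IDI1, MBTPS1 and STARD4 spread to both sides.

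Most of the 19 synthesis enzymes were higher. Of them, 15 rose with siE1, 10 with siE2 and 13 with siE3, while 0, 2 and 1 fell. The higher shares were 78.9%, 52.6% and 68.4%, against 24.5%, 27.9% and 21.3% of all tested genes, and the lower shares 0%, 10.5% and 5.26%, against 25.8%, 28.5% and 20.8%. The 0 for siE1 was also found at an unadjusted p below 0.05, with DESeq2 and with limma-voom. Their median log2 fold change was 0.33, 0.14 and 0.27. Their summed level was 2002 and 2099 CPM in siC, 2521 and 2425 in siE1, 2328 and 2251 in siE2 and 2365 and 2403 in siE3. All 6 siRNA libraries lay above both siC libraries in this sum, at 1.21, 1.12 and 1.16 times the siC mean of 2051 ± 68.4 CPM (SD, n = 2). Genes with high counts dominate such a sum.

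In the early mevalonate pathway, 7 of 8 enzymes rose with siE1, 5 with siE2 and 7 with siE3, while 0, 2 and 1 fell. The higher shares were 87.5%, 62.5% and 87.5%, against 24.5%, 27.9% and 21.3% of all tested genes. The lower shares were 0%, 25% and 12.5%, against 25.8%, 28.5% and 20.8%. HMGCS1, which condenses acetyl-CoA and acetoacetyl-CoA to HMG-CoA, stood at 265 and 306 CPM in siC, 420.0 and 377 in siE1, 419 and 365 in siE2 and 409.7 and 456 in siE3. Every siRNA library lay above both siC libraries. Its log2 fold change was 0.48, 0.46 and 0.60 with siE1, siE2 and siE3, with an average of 0.51 (SE 0.0643, edgeR adjusted p = 9.0e-06). ACAT2, the thiolase that makes acetoacetyl-CoA in the cytosol, stood at 190.3 and 196 CPM in siC, 259 and 245 in siE1, 213 and 213 in siE2 and 234 and 244 in siE3. It rose with each siRNA, by a log2 average of 0.28 (SE 0.0373, edgeR adjusted p = 1.6e-05). The siE2 call, at 0.14 (edgeR adjusted p = 0.014), was lost without siC replicate 1 and without either siE2 library. In the authors' deposited table, ACAT2 with siE2 had a fold of 1.10 and an adjusted p of 0.061. Exons of ACAT2 overlap those of TCP1 and SOD2 on the other strand, and the sources used here give no strand setting for the counting, so their reads cannot be told apart.

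Downstream of mevalonate, PMVK and MVD rose with each siRNA, and MVK with siE1 and siE3. PMVK, phosphomevalonate kinase, stood at 18.5 and 19.8 CPM in siC, 23.6 and 25.1 in siE1, 25.3 and 26.9 in siE2 and 32.6 and 30.4 in siE3. It rose with each siRNA, by 0.35, 0.45 and 0.71 on the log2 scale, with an average of 0.50 (SE 0.0670, edgeR adjusted p = 1.6e-05). MVD, the decarboxylase that gives isopentenyl diphosphate, stood at 81.3 and 83.8 CPM in siC, 103 and 94.6 in siE1, 112 and 107 in siE2 and 97.8 and 93.5 in siE3. Its log2 fold change was 0.26, 0.41 and 0.21, all called. MVK, mevalonate kinase, stood at 46.2 and 46.6 CPM in siC, 63.1 and 59.1 in siE1, 45.2 and 44.1 in siE2 and 65.5 and 61.7 in siE3. Here siE2 differed from the others: both siE2 libraries lay just below siC, at a log2 fold change of -0.05 (edgeR adjusted p = 0.48), while siE1 and siE3 raised it by 0.40 and 0.45. The differences themselves passed the test, at 0.45 for siE1 minus siE2 (edgeR adjusted p = 1.2e-05) and -0.51 for siE2 minus siE3 (5.6e-06). MVK shares exon sequence with MMAB on the other strand.

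Of the synthesis enzymes, IDI1 had the largest difference between 2 siRNAs. It interconverts the isopentenyl and dimethylallyl diphosphates, and stood at 169 and 192 CPM in siC, 243 and 217 in siE1, 158 and 151 in siE2 and 115 and 129 in siE3. It rose with siE1 by 0.35 on the log2 scale (SE 0.0679, edgeR adjusted p = 5.3e-04), and fell with siE2 (-0.22, 0.012) and siE3 (-0.56, 1.1e-05). The siE2 call was lost without siC replicate 2 and without siE2 replicate 2. In the authors' deposited table, IDI1 with siE2 had a fold of 0.851 and an adjusted p of 0.052. The groups siE1, siC, siE2 and siE3 did not overlap in this order from high to low. The call in the average, -0.15 (edgeR adjusted p = 0.040), was lost in 7 of the alternatives run, including the replicate block, and without siC replicate 2 its adjusted p was 0.57.

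FDPS, farnesyl diphosphate synthase, stood at 125 and 127 CPM in siC, 134 and 133 in siE1, 98.1 and 103 in siE2 and 147 and 136 in siE3. It fell with siE2 (-0.33 on the log2 scale, edgeR adjusted p = 5.5e-05), rose with siE3 (0.16, 0.015) and was at 0.08 with siE1 (0.20). The siE3 call was lost without either siC library and without siE3 replicate 1. GGPS1, which extends farnesyl to geranylgeranyl diphosphate, stood at 11.6 and 14.5 CPM in siC, 18.9 and 17.8 in siE1, 23.5 and 22.1 in siE2 and 18.7 and 18.5 in siE3. It rose with each siRNA, most with siE2 (0.80, 1.74-fold), with a log2 average of 0.60 (SE 0.0867, edgeR adjusted p = 3.6e-05). Its siC replicate 1 was the lowest library, and without that library the average was 0.45. FDPS has 8 annotated pseudogenes and overlaps RUSC1-AS1, and GGPS1 overlaps ARID4B and TBCE, so reads of these genes may be split or shared.

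Among the 11 enzymes of squalene and sterol synthesis, 8 rose with siE1, 5 with siE2 and 6 with siE3. This is 72.7%, 45.5% and 54.5%, against 24.5%, 27.9% and 21.3% of all tested genes. With any siRNA 0 fell, against 25.8%, 28.5% and 20.8% of all tested genes. That count was also 0 at an unadjusted p below 0.05, with DESeq2 and with limma-voom. At the entry to the branch, FDFT1 (squalene synthase) and SQLE (squalene epoxidase) had log2 fold changes near 0. FDFT1 stood at 252 and 248 CPM in siC, 238 and 239.8 in siE1, 272 and 268 in siE2 and 254 and 253 in siE3, and its call with siE2 (0.11, edgeR adjusted p = 0.029) was lost in 9 alternatives. SQLE stood at 138 and 139 CPM in siC, 130.1 and 133 in siE1, 134 and 131 in siE2 and 144 and 144 in siE3, with log2 fold changes of -0.07, -0.06 and 0.06 that did not pass the test. LSS, which closes the rings to lanosterol, stood at 153 and 160.0 CPM in siC, 216 and 206 in siE1, 180.4 and 173 in siE2 and 179.7 and 176 in siE3. It rose most with siE1, by 0.43 (SE 0.0465, edgeR adjusted p = 2.0e-06), and by 0.18 and 0.18 with siE2 and siE3. Both of the latter calls were lost without siC replicate 1, and the siE2 call also without siE2 replicate 1.

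The genes that trim lanosterol moved with different siRNAs. CYP51A1, the lanosterol demethylase, stood at 119 and 122 CPM in siC, 128 and 135 in siE1, 119 and 128 in siE2 and 148 and 142 in siE3. It rose with siE3 by 0.27 (edgeR adjusted p = 6.1e-04) and with siE1 by 0.13 (0.043), the latter lost in 6 alternatives. TM7SF2, a sterol reductase, stood at 5.61 and 6.51 CPM in siC, 7.23 and 7.84 in siE1, 12.1 and 14.5 in siE2 and 10.2 and 9.04 in siE3. Every siRNA library lay above both siC libraries, at log2 fold changes of 0.31 with siE1 (edgeR adjusted p = 0.078, not called), 1.13 with siE2 (SE 0.132, 3.2e-06) and 0.66 with siE3 (0.0012). The siE2 value, 2.19-fold, was the highest fold change of the 31 genes. TM7SF2 shares exon sequence with VPS51.

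MSMO1, the methylsterol oxidase, stood at 73.1 and 70.5 CPM in siC, 80.2 and 87.1 in siE1, 113 and 111 in siE2 and 102 and 103 in siE3. The 3 siRNA groups did not overlap siC or each other, with siE2 highest. Its log2 fold change was 0.22 with siE1, 0.64 with siE2 and 0.51 with siE3, with an average of 0.46 (SE 0.0447, edgeR adjusted p = 6.9e-07). The siE1 call was lost without siE1 replicate 2. NSDHL and HSD17B7 act with MSMO1 in removing methyl groups. NSDHL was at 0.18, 0.09 and 0.03, and HSD17B7 at 0.33, 0.27 and 0.20, on the log2 scale with siE1, siE2 and siE3. Both were called with siE1 and with no other siRNA by edgeR, and those calls were lost in 7 and 8 alternatives. CYP51A1 has 3 annotated pseudogenes and HSD17B7 has 2. HMGCS1, IDI1, LSS, STARD4, SREBF2 and CYP51A1 overlap annotated antisense genes, and CYP51A1 also overlaps 2 other protein-coding genes on its own strand, so their reads are uncertain in the same way.

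Of the last steps, EBP and DHCR7 were highest with siE1. EBP, the sterol isomerase, stood at 38.7 and 37.2 CPM in siC, 55.8 and 50.7 in siE1, 38.3 and 33.7 in siE2 and 46.2 and 45.6 in siE3. It rose with siE1 by 0.49 (SE 0.0721, edgeR adjusted p = 4.6e-05) and with siE3 by 0.27, and siE2 overlapped siC. SC5DL, the sterol desaturase, stood at 61.2 and 68.5 CPM in siC, 86.2 and 84.5 in siE1, 89.6 and 87.8 in siE2 and 91.98 and 93.02 in siE3, and rose with each siRNA, by 0.40, 0.45 and 0.51 (average 0.45, SE 0.0482, edgeR adjusted p = 1.7e-06). DHCR7, which makes cholesterol from its dehydro precursor, stood at 211 and 218 CPM in siC, 262 and 261 in siE1, 229.7 and 219.5 in siE2 and 220.2 and 222 in siE3. It rose with siE1 by 0.28 (edgeR adjusted p = 5.1e-05), and was at 0.07 and 0.04 with the other siRNAs, which were not called.

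Among the 7 genes of SREBP control, 2 rose and 2 fell with siE1, 3 rose and 1 fell with siE2, and 4 rose with siE3. The siE1 shares, 28.6% each, lie near the 24.5% and 25.8% of all tested genes. The higher shares with siE2 and siE3 were 42.9% and 57.1%, against 27.9% and 21.3%. The lower shares with these siRNAs were 14.3% and 0%, against 28.5% and 20.8%. That 0 became 1 at an unadjusted p below 0.05, and stayed 0 with DESeq2 and with limma-voom. In a list of 7, each share rests on few genes. INSIG1, the sterol-dependent retention protein and itself a known SREBP target, had the largest average rise of the 31 genes. It stood at 174 and 198 CPM in siC, 241 and 202 in siE1, 365 and 329 in siE2 and 369 and 421 in siE3. The siE2 and siE3 libraries lay far above siC, while the lower siE1 library was close to the higher siC library. The log2 fold change was 0.25 with siE1 (edgeR adjusted p = 0.022), 0.90 with siE2 (3.0e-07) and 1.09 with siE3 (8.5e-08), or 2.12-fold. The siE1 call was lost with DESeq2, without siC replicate 1 and without siE1 replicate 1. The log2 difference was -0.65 for siE1 minus siE2 (edgeR adjusted p = 8.0e-06) and -0.84 for siE1 minus siE3 (9.1e-07).

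INSIG2, the related retention protein, behaved differently. It stood at 25.01 and 22.5 CPM in siC, 22.9 and 25.2 in siE1, 13.6 and 14.8 in siE2 and 27.2 and 26.05 in siE3. It fell with siE2 to a log2 value of -0.74 against siC (SE 0.0916, edgeR adjusted p = 5.6e-06), or 0.598 times siC, and was at 0.02 and 0.17 with siE1 and siE3, not called. With siE2, INSIG1 thus rose while INSIG2 fell. The call of INSIG2 in the average (-0.19, edgeR adjusted p = 0.039) was lost in 8 alternatives.

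The SREBP genes were modestly higher. SREBF1 stood at 187 and 211 CPM in siC, 253 and 209 in siE1, 274 and 223 in siE2 and 258 and 304 in siE3. One siE1 library lay within the siC range, and the siE2 and siE3 libraries lay above it. Its log2 fold change was 0.21 with siE1 (edgeR adjusted p = 0.087, not called), 0.32 with siE2 (0.012) and 0.50 with siE3 (8.5e-04). Its average of 0.34 (edgeR adjusted p = 0.0026) lost its call without siC replicate 1, at an adjusted p of 0.059. The siE2 call was lost with DESeq2, without siC replicate 1 and without siE2 replicate 1. SREBF2 stood at 272 and 274 CPM in siC, 315 and 317 in siE1, 288 and 293 in siE2 and 315 and 306 in siE3. It rose with siE1 (0.21, edgeR adjusted p = 4.9e-04) and siE3 (0.18, 0.0019), and was at 0.09 with siE2 (0.074). SCAP, the escort, stood at 114 and 115 CPM in siC, 111 and 113 in siE1, 114 and 118 in siE2 and 110.2 and 100.1 in siE3, and no siRNA changed it past the test.

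The protease MBTPS1 had the largest difference between siRNAs of the 31 genes. It stood at 199 and 201 CPM in siC, 161 and 160.3 in siE1, 312 and 302 in siE2 and 237 and 225 in siE3. The groups siE2, siE3, siC and siE1 did not overlap in this order from high to low. It rose with siE2 by 0.62 (SE 0.0436, edgeR adjusted p = 1.4e-08) and with siE3 by 0.21 (0.0013), and fell with siE1 (log2 fold change -0.31, 3.0e-05). MBTPS2, which makes the following cut, stood at 49.5 and 48.8 CPM in siC, 37.6 and 38.1 in siE1, 50.8 and 53.9 in siE2 and 43.4 and 47.9 in siE3. It fell with siE1 (log2 fold change -0.38, edgeR adjusted p = 2.1e-04), and was at 0.09 and -0.11 with siE2 and siE3, not called. With siE1, the transcripts of both proteases were thus lower than in siC while 15 of the 19 enzymes were higher.

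**Figure D3:**
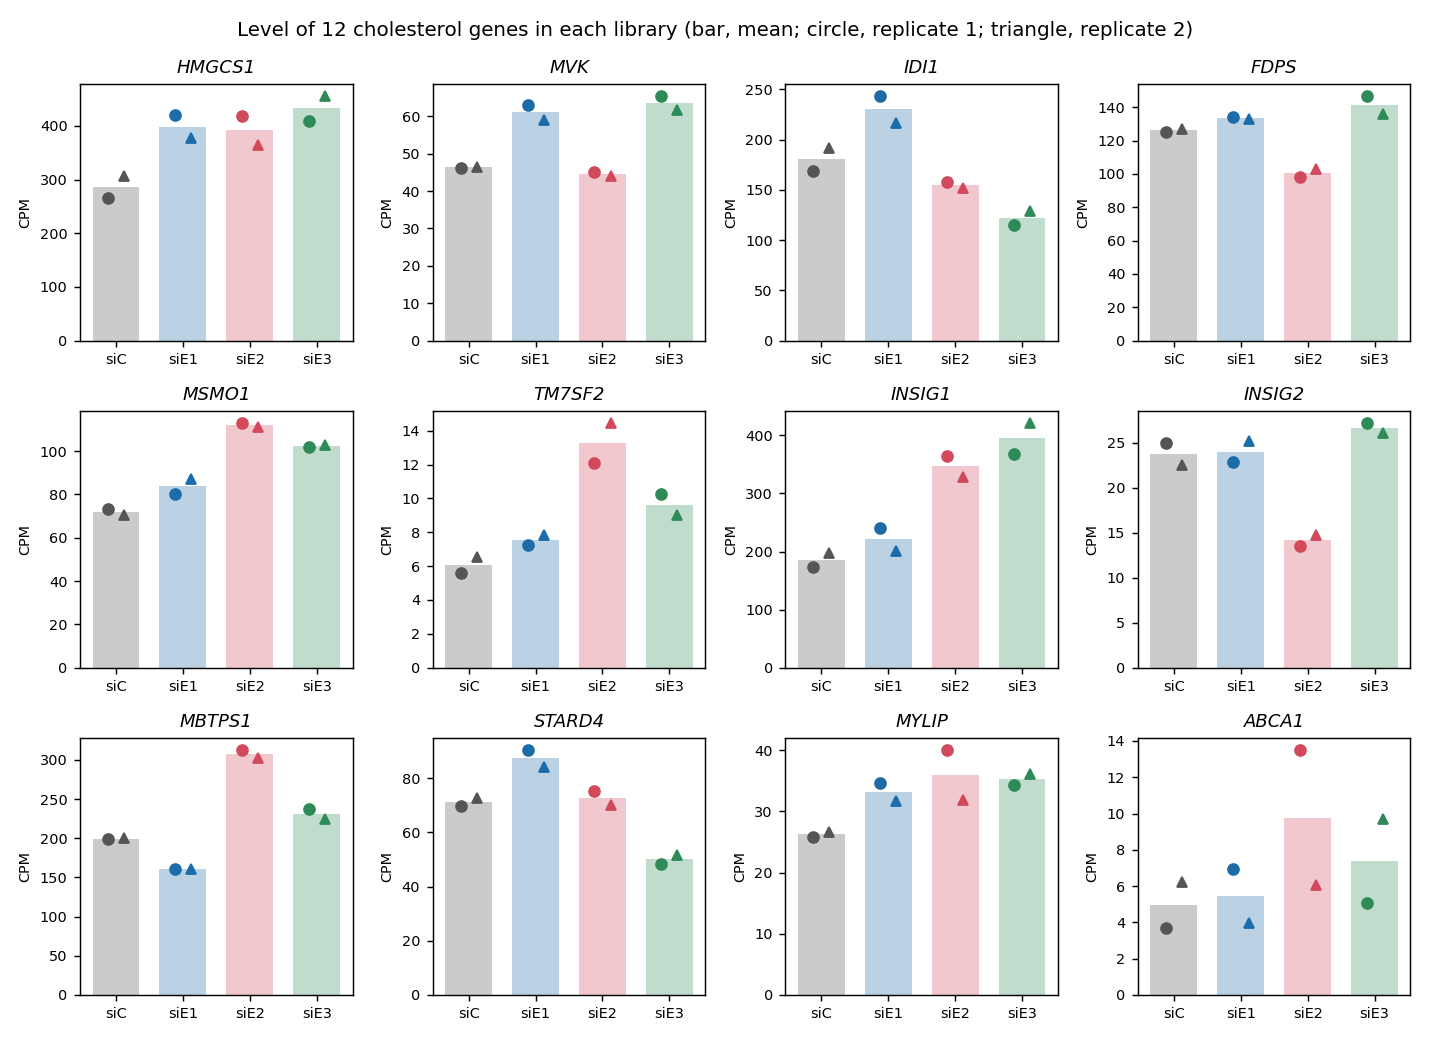
Level in CPM (y axis, from 0) of 12 cholesterol genes in each of the 8 libraries; bars are group means, circles replicate 1 and triangles replicate 2. INSIG1 stands at 174 to 241 CPM with siC and siE1 and at 329 to 421 with siE2 and siE3, INSIG2 is low with siE2, and MBTPS1 is low with siE1 and high with siE2.

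The genes of uptake and transport went different ways. SCARB1, the receptor for high-density lipoprotein, stood at 113 and 109.6 CPM in siC, 121 and 118 in siE1, 102 and 101 in siE2 and 114 and 109.9 in siE3. It was lower with siE2 (-0.14 on the log2 scale, edgeR adjusted p = 0.022) and at 0.10 and 0.00 with siE1 and siE3, not called. The siE2 call was lost in 5 alternatives. STARD4, a soluble carrier that moves sterol between membranes, stood at 69.9 and 72.8 CPM in siC, 90.4 and 84.3 in siE1, 75.3 and 70.3 in siE2 and 48.5 and 51.8 in siE3. It rose with siE1 by 0.29 (SE 0.0595, edgeR adjusted p = 8.1e-04), fell with siE3 (log2 fold change -0.51, SE 0.0622, 9.8e-06), and overlapped siC with siE2. MYLIP, the ligase that sends lipoprotein receptors for breakdown, stood at 25.8 and 26.7 CPM in siC, 34.7 and 31.6 in siE1, 40.00 and 31.8 in siE2 and 34.4 and 36.1 in siE3. All 6 siRNA libraries lay above both siC libraries, at a log2 average of 0.40 (SE 0.0791, edgeR adjusted p = 5.4e-04). The siE1 call of MYLIP was lost without siC replicate 1 and without siE1 replicate 1. In the authors' deposited table, MYLIP with siE2 had a fold of 1.36 and an adjusted p of 0.056.

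Efflux and esterification showed little that held. ABCA1, which loads cholesterol onto apolipoprotein A-I, had 81 and 145 counts in siC, 154 and 103 in siE1, 312 and 140 in siE2 and 111 and 224 in siE3. The groups overlapped, and in each group 1 library had far more counts than the other. Its log2 fold change with siE2 was 0.97 (SE 0.359, edgeR adjusted p = 0.031), a call lost in 5 alternatives that include DESeq2, limma-voom and the fit without siE2 replicate 1. With siE1 and siE3 it was 0.11 and 0.57, not called. SOAT1, which esterifies cholesterol for storage in the endoplasmic reticulum, stood at 177 and 180.1 CPM in siC, 185 and 186 in siE1, 164 and 164 in siE2 and 181 and 185 in siE3. It was lower with siE2 (-0.12, edgeR adjusted p = 0.021), a call lost in 4 alternatives, and at 0.05 and 0.04 with the others. ABCG1, at 0 counts throughout, had no test.

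Set against each other, the siRNAs differed in many of these genes. Between siE1 and siE2, 21 of the 31 genes differed (67.7%), against 57.1% of all tested genes. Between siE1 and siE3, 14 differed (45.2%), against 48.7%, and between siE2 and siE3, 19 did (61.3%), against 48.5%. These shares lie near those of all tested genes. IDI1, TM7SF2, MSMO1, EBP, MBTPS1, MBTPS2 and STARD4 differed in each of the 3 pairs by edgeR. The share of all tested genes that did so was not counted. The MSMO1 difference between siE2 and siE3 was lost in 11 alternatives.

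Several differences between siRNAs were large against the replicate spread. MBTPS1 was lower with siE1 than with siE2, at a log2 difference of -0.94 (SE 0.0440, edgeR adjusted p = 1.8e-10). IDI1 was higher with siE1 than with siE3 by 0.91 (SE 0.0694, edgeR adjusted p = 5.5e-08). STARD4, the sterol carrier, was higher with siE1 than with siE3 by 0.80 (SE 0.0613, edgeR adjusted p = 6.1e-08). INSIG2 was lower with siE2 than with siE3, at -0.91 (edgeR adjusted p = 9.3e-07). The target ESRRA was at 10.4 ± 0.113 CPM with siE1, 8.06 ± 1.14 CPM with siE2 and 8.43 ± 0.171 CPM with siE3 (SD, n = 2). It was higher with siE1 than with siE2 by a log2 difference of 0.37 (edgeR adjusted p = 0.0092). Against siE3 the siE1 difference was 0.30 (edgeR adjusted p = 0.031). Between siE2 and siE3 it was -0.06 (edgeR adjusted p = 0.67), not called.

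The 2 libraries of a group differed in several of these genes, and for some in a shared order. In siC, 7 of the 31 genes were higher in replicate 1 than in replicate 2, against 47.6% of the 10502 genes with a mean of at least 5 CPM. Higher in siC replicate 2, siE1 replicate 1, siE2 replicate 1 and siE3 replicate 2 than in the partner library were 9 of the 31 genes (29.03%): HMGCS1, IDI1, SC5DL, DHCR7, INSIG1, SREBF1, STARD4, MYLIP and ABCA1. Of the 10502 genes, 17.4% had this order. The reverse order held for 1 of the 31 (INSIG2, 3.23%) and 14.7% of the 10502. This order was picked after the values were seen, so no test is given. ABCA1 varied most, with a log2 ratio of replicate 1 to replicate 2 of -0.75 in siC, 0.81 in siE1, 1.16 in siE2 and -0.93 in siE3. INSIG1 was at -0.19, 0.26, 0.15 and -0.19, and SREBF1 at -0.17, 0.27, 0.29 and -0.24. The part of these replicate differences in the calls was not tested beyond leaving out each library.

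**Figure D4:**
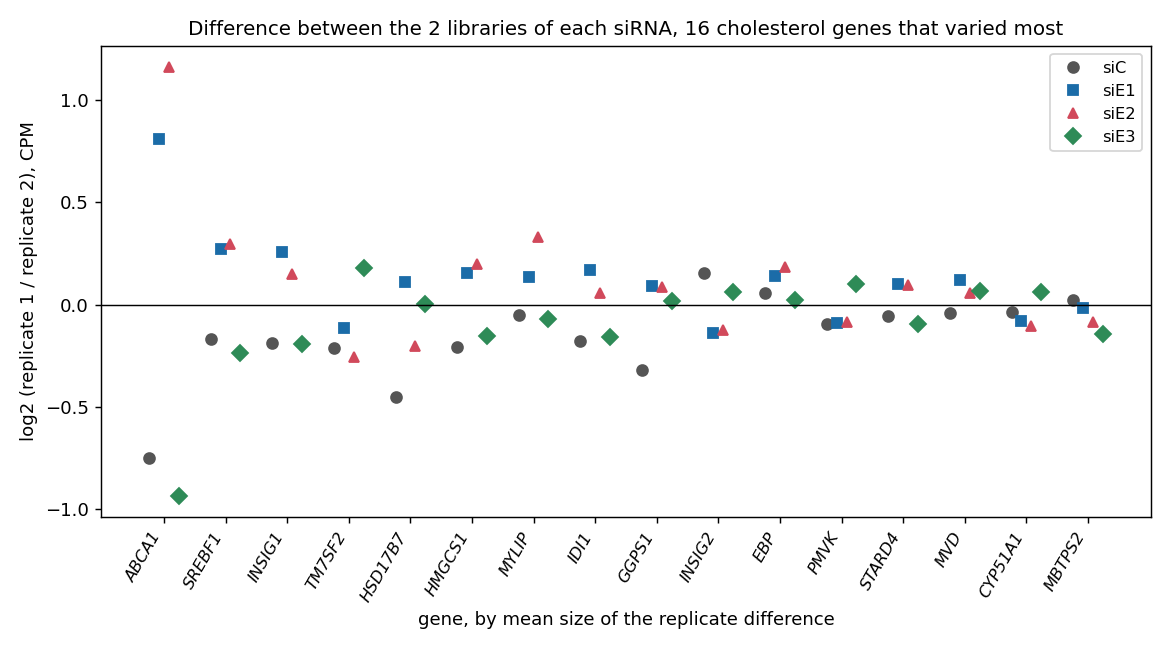
Log2 ratio of replicate 1 to replicate 2 in CPM (y axis) for the 16 cholesterol genes with the largest mean size of that ratio (x axis), by siRNA group. ABCA1 spans -0.93 to 1.16, and for ABCA1, SREBF1, INSIG1 and HMGCS1 the siC and siE3 points lie below 0 and the siE1 and siE2 points above it.

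Further genes around cholesterol were taken from 5 lists of 74 genes, of which 66 were tested. With siE1, 17 rose and 17 fell (25.8% each), near the 24.5% and 25.8% of all tested genes. With siE2, 25 rose and 15 fell (37.9% and 22.7%), against 27.9% and 28.5%, and with siE3, 26 rose and 13 fell (39.4% and 19.7%), against 21.3% and 20.8%. Of 17 tested genes of endosomal and intracellular cholesterol transport, 9 rose and 1 fell in the average of the siRNAs (52.9% and 5.88%), against 23.4% and 27.7% of all tested genes. By siRNA, 6 rose and 5 fell with siE1 (35.3% and 29.4%, against 24.5% and 25.8%). The counts were 11 and 1 for siE2 (64.7% and 5.88%, against 27.9% and 28.5%). They were 9 and 0 for siE3 (52.9% and 0%, against 21.3% and 20.8%). The lower share with siE1 was thus near that of all tested genes. Genes named next were picked by their p in the average, and none of the 5 that fell with siE1 is among them. LIPA, the acid lipase that frees cholesterol in lysosomes, stood at 108 and 106 CPM in siC, 135 and 127 in siE1, 245 and 229 in siE2 and 157 and 163 in siE3. It rose with each siRNA, by 0.29, 1.15 and 0.58 on the log2 scale. NPC1, which carries cholesterol out of lysosomes, stood at 114 and 107 CPM in siC, 167 and 164 in siE1, 168 and 170.5 in siE2 and 183 and 198 in siE3. It rose by 0.59, 0.62 and 0.79, and its partner NPC2 by 0.19, 0.22 and 0.43. OSBPL5, a lipid transfer protein, rose by 0.65, 0.93 and 0.36.

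Among 14 genes of sterol sensing and turnover of proteins in the endoplasmic reticulum, 4 rose and 4 fell in the average. This is 28.6% each, near the 23.4% and 27.7% of all tested genes. By siRNA, 4 rose and 4 fell with siE1 (28.6% each, against 24.5% and 25.8%). For siE2 the counts were 3 and 5 (21.4% and 35.7%, against 27.9% and 28.5%). Under siE3 all 14 were called, 8 higher and 6 lower (57.1% and 42.9%, against 21.3% and 20.8%). C12orf49, a partner of the SREBP-cutting protease, rose by 0.73, 0.60 and 0.69. SEC24A, a coat protein of the vesicles that leave the endoplasmic reticulum, rose by 0.31, 0.31 and 0.88. ERLIN1 and TMEM97 fell with each siRNA, with averages of -0.38 and -0.29. Of 11 tested genes of LXR and oxysterols, 4 rose and 1 fell in the average (36.4% and 9.09%), against 23.4% and 27.7%. RXRB fell with siE1 and siE2, at log2 fold changes of -0.34 and -0.61, and was at -0.13 with siE3, not called. NR1H3, the gene of LXRα, was at 0.25 with siE1, not called, and rose by 0.79 and 0.93 with siE2 and siE3. CYP27A1 rose by 0.94 with siE2 and was at 0.42 and 0.18 with siE1 and siE3, not called. HSD3B7, an enzyme of bile acid synthesis, rose by 0.96 and 0.91 with siE1 and siE3 and was at 0.13 with siE2.

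Of 7 tested lipoprotein receptor genes, LRP1 alone was called in the average by edgeR (14.3% higher and 0% lower), against 23.4% and 27.7%. With siE1, 1 rose and 1 fell (14.3% each), against 24.5% and 25.8% of all tested genes. With siE2, 3 rose and 2 fell (42.9% and 28.6%), against 27.9% and 28.5%. With siE3, 2 rose and 0 fell (28.6% and 0%), against 21.3% and 20.8%. LRP1, an endocytic receptor for many ligands, stood at 5.93 and 5.10 CPM in siC, 12.8 and 15.6 in siE1, 11.4 and 11.1 in siE2 and 11.98 and 13.8 in siE3. All siRNA libraries lay above both siC libraries, at log2 fold changes of 1.37, 1.03 and 1.23 (average 1.21, SE 0.117, edgeR adjusted p = 6.2e-07). Of 17 genes of the isoprenoid branches, which draw on the same mevalonate, 4 rose and 6 fell in the average (23.5% and 35.3%), near the 23.4% and 27.7% of all tested genes. PGGT1B, a subunit of a protein prenyl transferase, fell with each siRNA, at log2 fold changes of -0.39, -0.59 and -0.63, and TRIT1, which adds an isopentenyl group to tRNA, fell at -0.44, -0.58 and -0.37. ICMT, which methylates prenylated proteins, rose with siE1 (0.70) and siE2 (0.46).

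**Figure D5:**
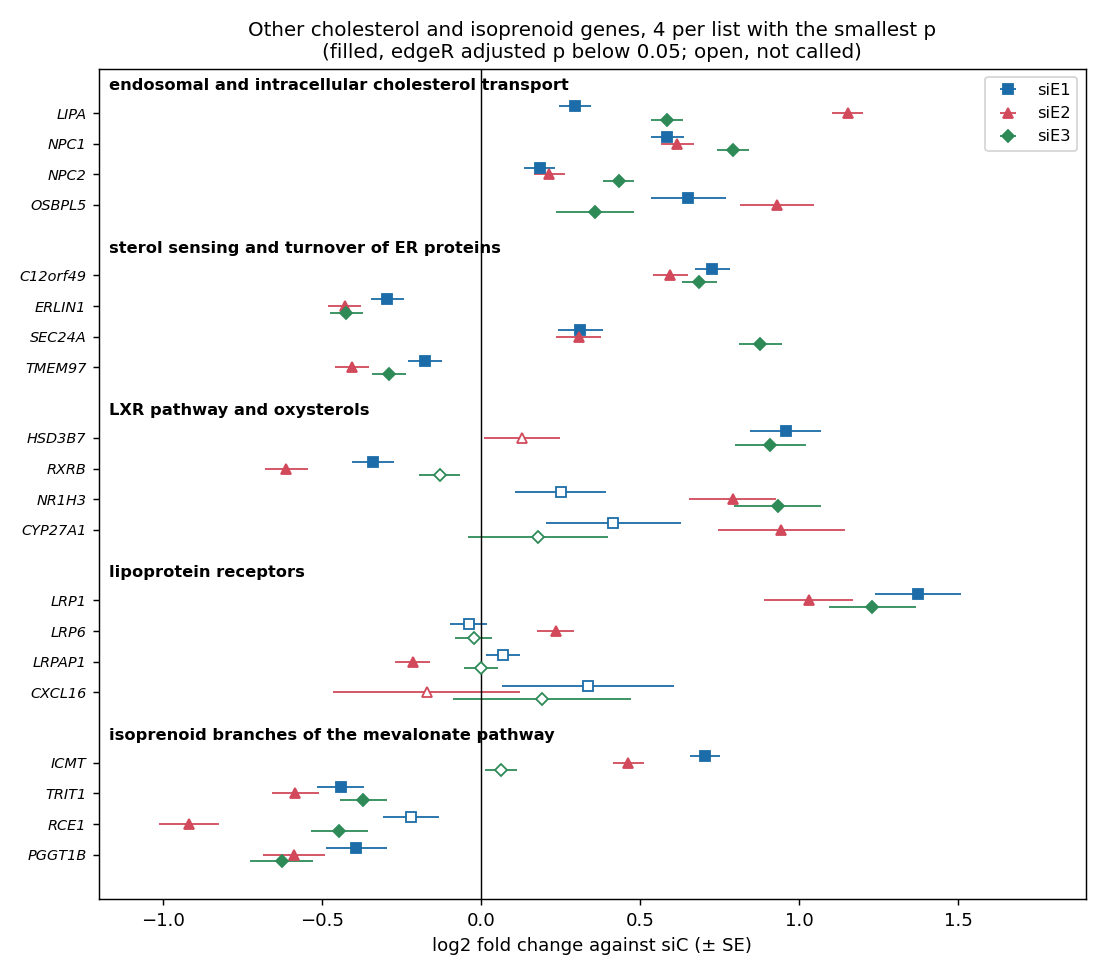
Log2 fold change against siC (x axis, ± SE) of the 4 genes with the smallest p in each of 5 further lists, for siE1, siE2 and siE3; filled symbols have an edgeR adjusted p below 0.05. LRP1, LIPA, NPC1 and C12orf49 lie right of 0 with each siRNA, and ERLIN1, TMEM97, TRIT1 and PGGT1B left of 0.

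In the authors' deposited table, 15 of the cholesterol genes were higher and 2 lower with siE1 at an adjusted p below 0.05, 10 and 2 with siE2, and 17 and 2 with siE3. No share over all genes was counted in that table, so whether these counts exceed its general rate was not tested. INSIG1 with siE1 had a fold of 1.19 and an adjusted p of 0.29 in the authors' deposited table, and ABCA1 with siE2 a fold of 1.96 and an adjusted p of 0.43.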

How the data were processed

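RNA-seq was made from MDA-MB-231 cells with siC, siE1, siE2 or siE3, 2 libraries each, grouped by sample titles. TopHat 1.3.3, HTSeq, DESeq and genome build hg19 are listed in the submitters' processing notes, and the sources used here give no strand setting or annotation. The deposited table has, per the file headers, raw counts per gene symbol. The authors' deposited fold (a linear ratio) and adjusted p-value columns were used to give the authors' own values.

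edgeR 4.0.16 in R 4.3.3 was fitted to all 8 libraries with 1 mean per group and 4 residual degrees of freedom. filterByExpr kept 13395 of 23368 symbols, and 5492 symbols had no count. TMM factors were 0.980 to 1.02 and the biological coefficient of variation 4.08%. The quasi-likelihood test was adjusted by Benjamini-Hochberg over all tested genes in each contrast, at 0.05. SE was taken as log2 fold change over the square root of F. Total counts of 21835995 to 25880548 set the precision, and ABCG1, at 0 counts, was not tested.

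All 32 genes, ESRRA and, per further list, up to 4 genes with the smallest p in the average were named. The members and lists were chosen with earlier results of these data known. Alternatives were DESeq2 1.42.0 size factors, library size, no filter or a stricter one (a mean of 1 CPM and 50 counts), the DESeq2 test, limma-voom (limma 3.58.1), fits of only the groups compared, a replicate block, a 1.5-fold limit and leaving out each library. The counts of alternatives in which a call was lost leave out the 1.5-fold limit. Replicates were compared by chi-square (12364 genes, mean count 20 or more). Promoters came from RefSeq (GRCh38.p14), and exon overlaps and pseudogenes from GENCODE v29, by symbol, with no hg19 coordinates used. Python 3.11.15 and matplotlib 3.10.9 made the motif search and plots. Some genes are not reported here.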

Additional observations from a re-analysis of the deposited data

Results flagged for a closer look

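In 4 cholesterol genes, 2 siRNAs moved the gene to opposite sides of siC and the difference between those siRNAs itself passed edgeR's quasi-likelihood test. IDI1, the isomerase of isopentenyl diphosphate, was higher with siE1 than with siE2 by 0.57 on the log2 scale (edgeR adjusted p = 3.9e-06), and higher than with siE3 by 0.91 (5.5e-08). Its siE2 call against siC was lost without siC replicate 2 and without siE2 replicate 2. FDPS, farnesyl diphosphate synthase, gave -0.49 for siE2 minus siE3 (edgeR adjusted p = 1.3e-06). Its siE3 call against siC was lost without either siC library and without siE3 replicate 1. MBTPS1, the protease that first cuts the SREBP precursors, gave -0.94 for siE1 minus siE2 (edgeR adjusted p = 1.8e-10) and -0.52 for siE1 minus siE3 (1.6e-07). STARD4, the sterol carrier, gave 0.80 for siE1 minus siE3 (edgeR adjusted p = 6.1e-08). Both libraries of each siRNA lay on the stated side of both siC libraries in these cases. The share of all tested genes with such opposite calls was not counted. ESRRA stood at 10.4, 8.06 and 8.43 CPM with siE1, siE2 and siE3, and the part of its remaining level in these differences was not tested.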

How the results depend on the processing

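The number of the 31 genes called stayed within 1.5 times the reported one under DESeq2 size factors, library size alone, both other filters, DESeq2, limma-voom and fits of only the groups compared. It did not under a 1.5-fold limit, which left 0 with siE1, 7 with siE2, 4 with siE3, 3 in the average, 5, 3 and 1 between siE1 and siE2, siE1 and siE3, and siE2 and siE3, and 0 shared by all 3 siRNAs, since most changes were smaller. Leaving out 1 library gave 16 to 22 with siE1, 13 to 20 with siE2 (13 without siE2 replicate 1), 18 to 20 with siE3, 16 to 21 in the average, 17 to 21, 10 to 14 and 14 to 20 between the siRNAs, and 6 to 11 shared (6 without siC replicate 1). The lone sample left is then assumed to vary like the other groups. The replicate numbers showed no common pairing over 13395 genes. The deviations of replicate 1 correlated at 0.14 between siC and siE3 and at 0.23 between siE1 and siE2. In the other 4 pairs of groups they correlated at -0.27 to -0.21. The order described for 9 cholesterol genes would give these signs. It was picked from these same libraries and no label gives it, so the signs are not separate support for it. The block was run on the numbers as labelled. These cut across that order, so the block could not take it out. With the replicate block, 18, 18 and 20 genes were called with siE1, siE2 and siE3, 18 in the average, 20, 13 and 16 between the siRNAs, and 10 shared. Of the averages of single genes, SCARB1 and SOAT1, both near 0 and not called, changed sign in 3 alternatives each, and the other 29 did not. Genes at low counts, ABCA1, TM7SF2 and HSD17B7, had the widest errors, and ABCG1 could not be detected at this depth.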
